A study of Mus musculus with 12 samples.

Results

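The clustered histone genes of mouse 4T1 cells were taken as every entry of the count table whose symbol began with Hist1h, Hist2h, Hist3h or Hist4h, without entries marked as pseudogenes. This gave 66 of 40406 entries: 6 H1, 20 H2A, 15 H2B, 12 H3 and 13 H4 genes. Of these, 54 belong to the Hist1 cluster on chromosome 13, 9 to Hist2 on chromosome 3, 2 to Hist3 on chromosome 11, and 1 is the single Hist4 gene on chromosome 6 (GRCm38, GENCODE M21). After a filter on low counts, 60 genes were tested.

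Histone proteins package DNA: H2A, H2B, H3 and H4 form the nucleosome core, and H1 binds the linker DNA between nucleosomes. Most proteins of these types are made from clustered, intronless genes that are transcribed mainly in S phase, when new DNA must be wrapped. Their mRNAs usually end in a short stem-loop in place of a poly(A) tail; the stem-loop binding protein Slbp holds this structure during processing, and the mRNAs are degraded when DNA synthesis stops.

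The 12 libraries came from 4T1 cells, a triple-negative mammary tumour line of BALB/c mice, labelled either wild type or knockout for integrin beta 3, and grown on dishes coated with poly-L-lysine. Each genotype was exposed for 24 h to the solvent DMSO or to 10 nM docetaxel, a taxane that stabilises microtubules, followed by 48 h of recovery without the drug. The 4 groups were WT-DMSO, WT-DTX, KO-DMSO and KO-DTX, with 3 cultures each. Libraries were made from total RNA by ribosomal RNA depletion and random-hexamer priming, without poly(A) selection, so mRNAs without a tail could enter them. How the knockout line was made, and whether it is 1 clone, is not stated in the labels.

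Each library held between 28.7 and 40.8 mega-counts in all. Itgb3, the gene labelled as knocked out, was at 65.9 ± 5.67 CPM (counts scaled to a common library size; mean ± SD, n = 3 throughout) in WT-DMSO and 64.7 ± 2.14 in KO-DMSO, a difference of -0.03 ± 0.08 (log2, SE) with an edgeR adjusted p of 0.874, so its transcript level does not check the genotype label and those cells are called knockout-labelled below. The free-text description of WT-DMSO library 1 reads knockout, against wild type in its title and genotype field; results that change without it are given both ways. The 6 epithelial markers summed to 2463 to 3118 CPM in WT-DMSO, 2099 to 2584 in WT-DTX, 3070 to 3258 in KO-DMSO and 2204 to 2873 in KO-DTX. Of these 6, 1 rose and 2 fell after docetaxel in wild type, and 2 fell in knockout-labelled cells. Between genotypes, 2 were higher in knockout-labelled cells under DMSO and 2 after docetaxel. The sums of the leukocyte (6), endothelial (3) and erythroid (2) markers reached at most 8.04, 0.654 and 0.173 CPM. The sum of the 4 fibroblast markers, nearly all Pdgfra, moved with both treatment and genotype: it was 28.3 to 30.6 CPM in WT-DMSO, 19.4 to 21.1 in WT-DTX, 14.8 to 18.6 in KO-DMSO and 12 to 14.5 in KO-DTX, and its part in the results was not tested. The entry Gm23935 took 3.98% of the counts in WT-DMSO library 2, 1.62% in WT-DMSO library 1 and 1.51% in KO-DTX library 3, and at most 0.856% in the others.

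The stem-loop was searched in the GENCODE M21 transcripts as 6 paired bases around a loop of 4 bases of the kind histone mRNAs carry. It was found in 42 of the 66 genes, against 27 of 21887 other protein-coding genes (0.123%). Gene models that stop at the coding end cannot show it. Some longer models also held no match, such as those of Hist2h2be (2620 bases) and Hist1h2bq (2015 bases). The reason was not tested, and a missing match does not show that the mRNA lacks a stem-loop. The 42 matches held 6 different cores, and 1 region per core is shown because the cores of H4 genes differ from those of the other classes; capitals mark the stem and loop, and each sequence is on the strand of its gene.
Hist1h2ae (H2A, chr13:23570517-23571220, minus strand): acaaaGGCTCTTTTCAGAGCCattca
Hist1h3e (H3, chr13:23561534-23562369, minus strand): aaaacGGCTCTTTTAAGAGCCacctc
Hist2h2ac (H2A, chr3:96220361-96220880, minus strand): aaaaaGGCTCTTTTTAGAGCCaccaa
Hist1h4d (H4, chr13:23581598-23582735, plus strand): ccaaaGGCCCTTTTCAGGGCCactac
Hist2h4 (H4): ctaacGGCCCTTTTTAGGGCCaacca
Hist1h4j (H4): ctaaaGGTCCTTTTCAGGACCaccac
The first core was shared by 24 genes of H1, H2A, H2B and H3, and the second by 6, Hist1h3e, Hist1h3f, Hist1h3c, Hist1h2bb, Hist1h2bk and Hist1h1t. The core of Hist2h2ac occurred in that gene only. The last 3 cores were found in H4 genes alone, in 7, 2 and 2 of them.

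Promoters were read from RefSeq (GRCm38.p6) for 58 of the genes as 250 bases before and 50 after the annotated start, and searched on both strands for TATAAA (the TATA box), CCAAT (the CCAAT box) and ATTTGCAT (the octamer bound by Oct-1). TATAAA, on either strand, was in 35 of 58 (60.3%), against 14.2% of all 27025 promoters. The windows of neighbouring H2A and H2B genes transcribed away from each other can overlap, so 1 site can count for both. The TTTATA of Hist1h2ae, for example, is the TATAAA of Hist1h2bg, and that of Hist1h2bp is the TATAAA of Hist1h2an. CCAAT was in 49 of 58 (84.5%, against 37.9%): in all 6 H1, 17 H2A, 13 H2B and 10 H3 promoters, but in 3 of 12 H4 promoters. The octamer was in 11 of 58 (19%, against 1.75%), in 7 H2A and 4 H2B promoters and in none of the other classes. These are not all separate sites. Hist1h2ae and Hist1h2bg share 1 octamer, read from opposite strands, and so do Hist1h2ah and Hist1h2bk, and Hist1h2aa and Hist1h2ba. The 250-base upstream stretches of 3 genes are shown, 1 from a divergent H2A and H2B pair whose genes moved together, 1 from a pair whose genes did not, and 1 from an H4 gene without a CCAAT match; capitals mark matches on either strand.
Hist1h2ae (chr13:23571221-23571470, minus strand): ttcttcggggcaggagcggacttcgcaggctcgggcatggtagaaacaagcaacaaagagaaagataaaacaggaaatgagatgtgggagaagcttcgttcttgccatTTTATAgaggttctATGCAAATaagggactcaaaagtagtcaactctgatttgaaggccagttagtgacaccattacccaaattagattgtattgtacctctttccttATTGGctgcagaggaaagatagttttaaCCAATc
Hist2h2ac (chr3:96220881-96221130, minus strand): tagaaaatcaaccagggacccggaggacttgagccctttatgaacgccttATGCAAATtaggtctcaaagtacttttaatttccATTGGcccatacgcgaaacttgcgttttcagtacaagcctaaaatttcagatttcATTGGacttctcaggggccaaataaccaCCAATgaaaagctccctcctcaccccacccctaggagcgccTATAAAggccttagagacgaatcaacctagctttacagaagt
Hist1h4k (chr13:21750554-21750803, minus strand): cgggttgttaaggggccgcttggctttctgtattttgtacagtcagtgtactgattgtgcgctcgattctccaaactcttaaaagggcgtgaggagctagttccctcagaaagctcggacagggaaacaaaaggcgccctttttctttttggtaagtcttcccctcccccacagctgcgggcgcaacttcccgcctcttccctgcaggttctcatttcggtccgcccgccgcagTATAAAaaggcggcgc
A match is a run of letters and not a shown binding site. Genes that share an octamer were counted separately in the comparison that follows. Among tested H2A and H2B genes, the 10 with the octamer had a median log2 change after docetaxel of -0.72 in wild-type cells and -0.41 in knockout-labelled cells, and the 17 with a promoter read but without it of -0.46 and -0.44; for the other 5 no promoter was read.

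Near-identical copies limit what a single gene's count can say. Of the 150-base windows of each transcript, the read length, a median of 73.7% occurred nowhere else in the transcripts. In 13 genes every window was unique, including Hist1h1c, Hist1h2ak, Hist1h4d, Hist2h4 and Hist2h2be, and in 42 genes at least 50% were. Hist2h2aa1, Hist2h2aa2, Hist2h3b and Hist2h3c1 had no unique window and 0 counts in all 12 libraries, which does not show that they were silent. Hist1h1t and Hist1h2aa had too few counts to be tested. Another annotated gene overlaps 25 of the 66, and Hist1h2aj and Hist1h2al are typed as pseudogenes by GENCODE.

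Summed over all 66 genes, histone transcripts made up 1.41% to 1.74% of the counts of each DMSO library and 1.06% to 1.25% of each docetaxel library. H4 held the largest share of the histone signal, 34.5% to 43.1% across libraries, followed by H3 with 17.7% to 22.2%, H2B with 15.3% to 17.5%, H2A with 12.6% to 14.9% and H1 with 9.42% to 12.9%. The H3 share was 20.6% to 22.2% in the DMSO libraries and 17.7% to 19.8% in the docetaxel libraries, without overlap, and the other shares overlapped. Per kilobase of annotated exon, the highest level over the 12 libraries in each class was that of Hist1h4k (1673 CPM per kb), Hist1h2ak (1060), Hist1h2bb (863), Hist1h3e (855) and Hist1h1c (325); annotated lengths differ, since some models hold only the coding region.

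After docetaxel, the summed histone level in wild-type cells fell from 17182, 17702 and 15421 CPM to 10545, 11062 and 12267 CPM, that is to 67.3% of the DMSO mean. In knockout-labelled cells it went from 17420, 14479 and 15659 CPM to 9920, 11865 and 11499 CPM, 70% of the DMSO mean. No docetaxel library reached the lowest DMSO library of its genotype. The same held for each of the 5 classes in each genotype. It was narrow for H4 in wild type, with 5293 CPM in WT-DTX library 3 and 5325 CPM in WT-DMSO library 3. The H3 sum went from 3543 ± 113 to 2104 ± 212 CPM in wild type, 59.4% of DMSO, and from 3364 ± 296 to 2121 ± 175 CPM in knockout-labelled cells, 63%. The H1 sum stood at 61.8% and 67.7% of DMSO in the same order. Those of H2A (68.3% and 72%) and H2B (67.3% and 74.3%) came next. H4 kept the largest part in wild type, with 6378 ± 915 and 4658 ± 584 CPM (73%), and stood at 72.1% in knockout-labelled cells. In bulk RNA, fewer cells in S phase and less histone mRNA per cell cannot be told apart. The sums pool genes of unequal abundance and were not tested.

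**Figure D1:**
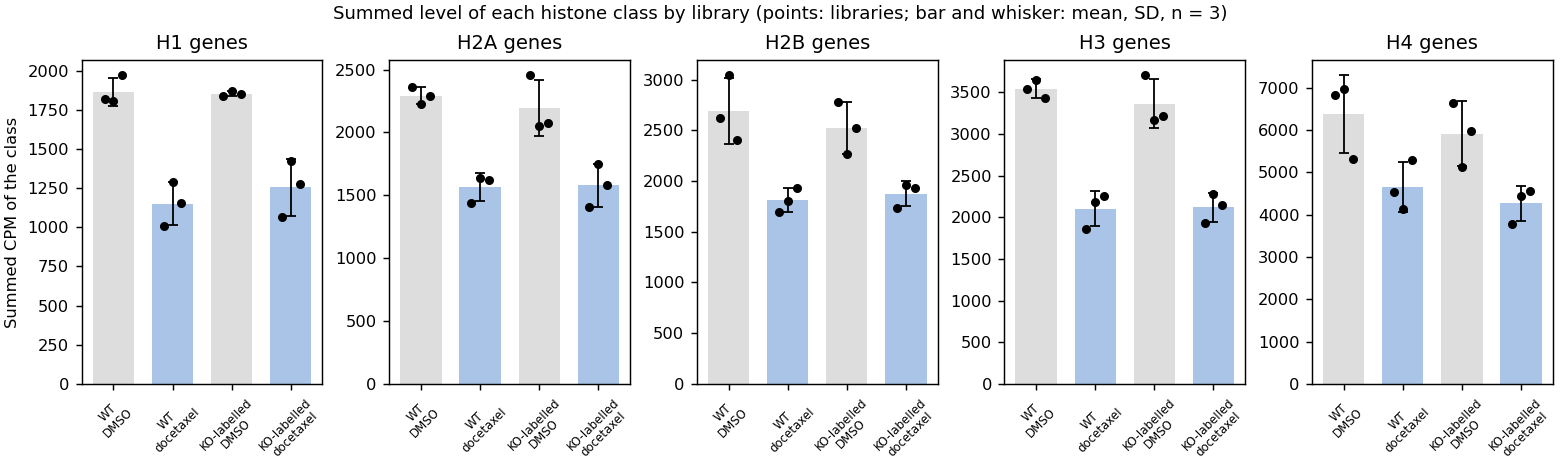
Summed CPM of the H1, H2A, H2B, H3 and H4 genes in each group (vertical axis, from 0); points are libraries, bars means and whiskers SD of 3 libraries. In all 5 classes and both genotypes the docetaxel libraries lie below the DMSO libraries, with H3 going from 3543 to 2104 CPM in wild type. For H4 in wild type the highest docetaxel library (5293 CPM) is close under the lowest DMSO library (5325 CPM).

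In wild-type cells 36 of the 60 tested histone genes fell after docetaxel, 1 rose and 23 did not pass (edgeR quasi-likelihood test, adjusted p below 0.05). Of all 15538 tested genes, 13.8% fell and 14.5% rose. The median log2 change was -0.51 over the histone genes and 0.02 over all genes. The docetaxel libraries lay below every DMSO library for 36 histone genes, and for 19.3% of all genes. The fall was spread over the classes: 3 of 5 H1, 9 of 17 H2A, 9 of 15 H2B, 8 of 10 H3 and 7 of 13 H4 genes. Within the Hist1 cluster 33 of 52 fell, and within Hist2 2 of 5, with cluster medians of -0.53 and -0.07. Without WT-DMSO library 1, 32 genes fell and 1 rose; without WT-DMSO library 2 and KO-DTX library 3, 28 fell and 1 rose, in a fit that kept WT-DMSO library 1.

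In knockout-labelled cells 31 of 60 fell, 0 rose and 29 did not pass, against 7% lower and 9.09% higher among all genes. The median was -0.45, against 0.00 over all genes. The libraries did not overlap, with docetaxel lower, for 38 histone genes and for 18.5% of all genes. By class, 4 of 5 H1, 7 of 17 H2A, 6 of 15 H2B, 8 of 10 H3 and 6 of 13 H4 genes fell. Within the Hist1 cluster 30 of 52 fell, and within Hist2 1 of 5, with cluster medians of -0.46 and -0.38. The count of 31 depended on single libraries: 19 fell without KO-DMSO library 1, and 20 without KO-DMSO library 3 or without KO-DTX library 1. It was also 20 after correction for GC content, with a median of -0.35. The median GC content of the transcripts was 58.9% for the histone genes and 49.8% for all tested genes, and highest for H2A (64.3%). By the threshold, 28 genes fell in both genotypes, 77.8% of those that fell in wild type and 90.3% of those that fell in knockout-labelled cells.

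**Figure D2:**
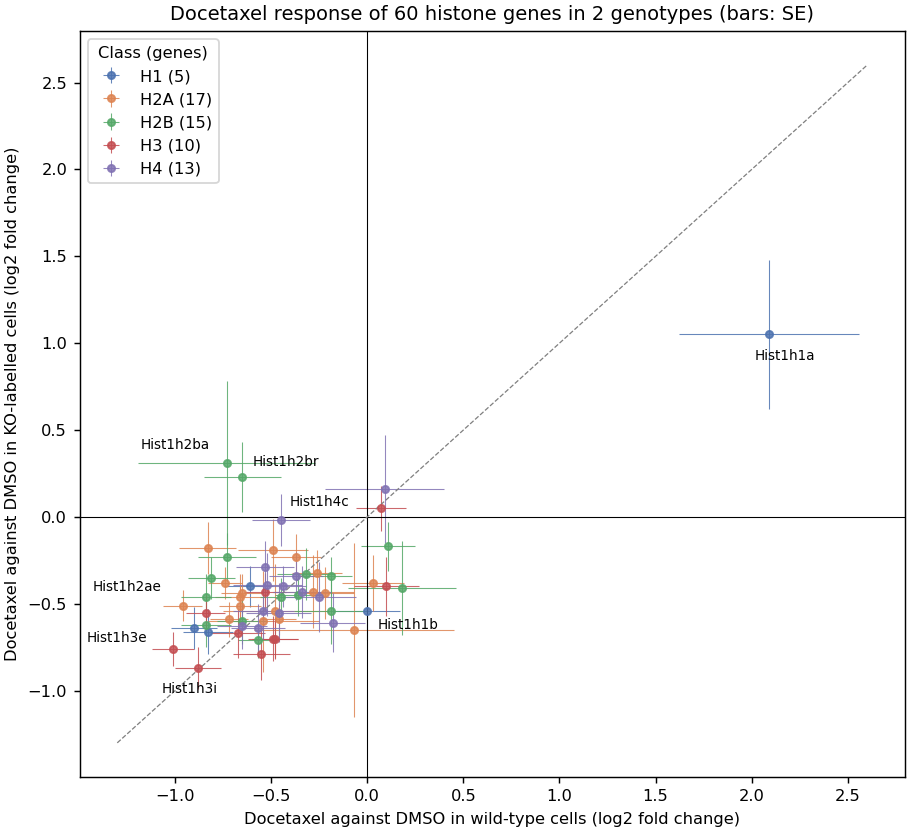
Log2 fold change of each of the 60 tested histone genes after docetaxel in wild-type (horizontal) and knockout-labelled cells (vertical), coloured by class, with SE bars; the dashed line marks equal change. Most genes lie below 0 on both axes, around medians of -0.51 and -0.45, and Hist1h1a stands alone at upper right.

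Among H1 genes, which encode linker histones, Hist1h1c was the most abundant. Its level was 620, 697 and 722 CPM in WT-DMSO and 302, 423 and 370 CPM in WT-DTX, and 576, 615 and 600 CPM in KO-DMSO and 337, 421 and 395 CPM in KO-DTX. All docetaxel libraries were below all DMSO libraries. The log2 change was -0.90 ± 0.12 in wild type (edgeR adjusted p = 0.000163) and -0.64 ± 0.12 in knockout-labelled cells (edgeR adjusted p = 0.00254). Hist1h1d changed by -0.83 ± 0.13 and -0.66 ± 0.13 on the log2 scale, and both calls held under every alternative. Hist1h1e fell by 0.61 on the log2 scale in wild type; in knockout-labelled cells it was at -0.40 ± 0.12 (edgeR adjusted p = 0.0327), a call lost without any 1 of the 3 KO-DMSO libraries, KO-DTX library 1 or 3, or WT-DTX library 3 (highest edgeR adjusted p = 0.102).

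Hist1h1b did not pass with the other linker histone genes in wild-type cells, and Hist1h1a did not fall in either genotype. Hist1h1b was at 226, 137 and 137 CPM in WT-DMSO, 152, 185 and 163 CPM in WT-DTX, 285, 237 and 267 CPM in KO-DMSO and 159, 206 and 176 CPM in KO-DTX. The wild-type groups overlapped through WT-DMSO library 1 alone, and the other WT-DMSO libraries lay below every WT-DTX library. The KO-DMSO libraries were the 3 highest. The change after docetaxel was 0.00 ± 0.17 in wild type (edgeR adjusted p = 0.997) and -0.54 ± 0.17 in knockout-labelled cells (edgeR adjusted p = 0.0414). The latter call was lost without any 1 KO-DMSO library, without KO-DTX library 1 or 3, or without WT-DTX library 3 (highest edgeR adjusted p = 0.144). Hist1h1a, a variant best known from testis, rested on 3, 5 and 10 counts in WT-DMSO and 49, 20 and 25 counts in WT-DTX. Its level was 0.104, 0.172 and 0.338 CPM, then 1.38, 0.562 and 0.711 CPM, a log2 change of 2.09 ± 0.47 (edgeR adjusted p = 0.00482). It was the only clustered histone gene that rose after docetaxel in wild-type cells, at the lowest abundance of the tested H1 genes, and in knockout-labelled cells its change of 1.05 ± 0.43 did not pass (edgeR adjusted p = 0.11).

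Among H2A genes, Hist1h2ae changed most in wild type. It was at 201, 249 and 231 CPM in WT-DMSO, 109, 124 and 118 CPM in WT-DTX, 180, 160 and 166 CPM in KO-DMSO and 109, 124 and 124 CPM in KO-DTX. The 2 docetaxel groups covered the same range, while the DMSO groups did not overlap. The log2 change was -0.96 ± 0.10 in wild type (edgeR adjusted p = 1.81e-05) and -0.51 ± 0.09 in knockout-labelled cells (edgeR adjusted p = 0.00259). Hist1h2ak, the most abundant H2A gene and unique in all its windows, was at 523, 526 and 537 CPM in WT-DMSO, 313, 345 and 344 CPM in WT-DTX, 533, 435 and 448 CPM in KO-DMSO and 279, 373 and 343 CPM in KO-DTX. The treatments did not overlap in either genotype, with log2 changes of -0.66 ± 0.11 (edgeR adjusted p = 0.000647) and -0.51 ± 0.11 (edgeR adjusted p = 0.00582; 0.16 after GC correction). Hist1h2ab (-0.72 and -0.59) and Hist1h2ac (-0.74 and -0.38) fell in both genotypes under every alternative. Hist1h2ap, with 9.01% of windows unique, fell by 0.83 on the log2 scale in wild type, and was at -0.18 ± 0.15 in knockout-labelled cells (edgeR adjusted p = 0.462). Hist2h2ac, on chromosome 3, stood at 241, 158 and 211 CPM in WT-DMSO and 183, 223 and 214 CPM in WT-DTX, and these overlapped.

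Among H2B genes, Hist1h2bg was the most abundant. It was at 570, 886 and 615 CPM in WT-DMSO, 373, 384 and 401 CPM in WT-DTX, 568, 534 and 544 CPM in KO-DMSO and 393, 381 and 424 CPM in KO-DTX. The groups did not overlap between treatments, and WT-DMSO library 2 was the highest. The log2 change was -0.84 ± 0.13 in wild type (edgeR adjusted p = 0.000472) and -0.46 ± 0.13 in knockout-labelled cells (edgeR adjusted p = 0.0275), the latter lost without any 1 of the 6 knockout-labelled libraries (highest edgeR adjusted p = 0.082). Hist1h2bl was at 236, 250 and 221 CPM in WT-DMSO, 152, 153 and 170 CPM in WT-DTX, 284, 233 and 254 CPM in KO-DMSO and 138, 172 and 161 CPM in KO-DTX, also without overlap. It fell by 0.57 and 0.71 on the log2 scale, in wild-type and knockout-labelled cells. Hist1h2bb, on the same scale, fell by 0.81 in wild type (edgeR adjusted p = 0.000331), and its change in knockout-labelled cells was -0.35 ± 0.12 (edgeR adjusted p = 0.057). Hist2h2be, whose gene model runs to 2620 bases without a stem-loop match, fell in both genotypes under every alternative (-0.84 and -0.62). Its level was low, 10.1, 13 and 9.66 CPM in WT-DMSO and 6.07, 5.98 and 6.17 CPM in WT-DTX.

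H3 genes fell in 80% of cases in each genotype, and their median change was -0.68 in knockout-labelled cells, beside -0.54 in wild type. Hist1h3e was at 911, 1068 and 1044 CPM in WT-DMSO, 434, 527 and 543 CPM in WT-DTX, 893, 836 and 817 CPM in KO-DMSO and 454, 540 and 514 CPM in KO-DTX. Docetaxel libraries were all far below DMSO libraries. The log2 change of -1.01 ± 0.11 in wild type (edgeR adjusted p = 2.59e-05) was the largest fall of any tested clustered histone gene, and in knockout-labelled cells it was -0.76 ± 0.10 (edgeR adjusted p = 0.000261). Hist1h3i was at 344, 305 and 322 CPM in WT-DMSO, 154, 185 and 191 CPM in WT-DTX, 362, 309 and 305 CPM in KO-DMSO and 145, 201 and 189 CPM in KO-DTX. Its log2 change was nearly the same in both genotypes, -0.88 ± 0.12 and -0.87 ± 0.12, with 47.3% of its windows unique. Hist1h3f and Hist1h3d also fell in both under every alternative. The 2 H3 genes that did not pass in either genotype were Hist1h3a (0.10 ± 0.17 and -0.40 ± 0.17) and Hist2h3c2 (0.07 ± 0.13 and 0.05 ± 0.13), the latter from the Hist2 cluster.

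Among H4 genes, Hist1h4d was the most abundant of the 66 genes by counts. It was at 1450, 1813 and 1281 CPM in WT-DMSO, 1113, 999 and 1232 CPM in WT-DTX, 1455, 1244 and 1371 CPM in KO-DMSO and 972, 993 and 1115 CPM in KO-DTX. The highest docetaxel library was close under the lowest DMSO library in wild type. The log2 change was -0.44 ± 0.12 (edgeR adjusted p = 0.0169), lost without WT-DMSO library 2 (0.0756) or WT-DTX library 2 (0.0697), and -0.40 ± 0.12 in knockout-labelled cells (edgeR adjusted p = 0.0404), lost in 8 of the 12 fits that left out 1 library. Hist1h4j fell under every alternative in both genotypes, with log2 changes of -0.57 ± 0.14 and -0.64 ± 0.14. Hist1h4k was at 744, 685 and 533 CPM in WT-DMSO, 408, 369 and 468 CPM in WT-DTX, 696, 538 and 621 CPM in KO-DMSO and 369, 416 and 417 CPM in KO-DTX, without overlap. Its change was -0.65 ± 0.13 in wild type (edgeR adjusted p = 0.00258) and -0.63 ± 0.13 in knockout-labelled cells (edgeR adjusted p = 0.00551; 0.141 after GC correction).

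**Figure D3:**
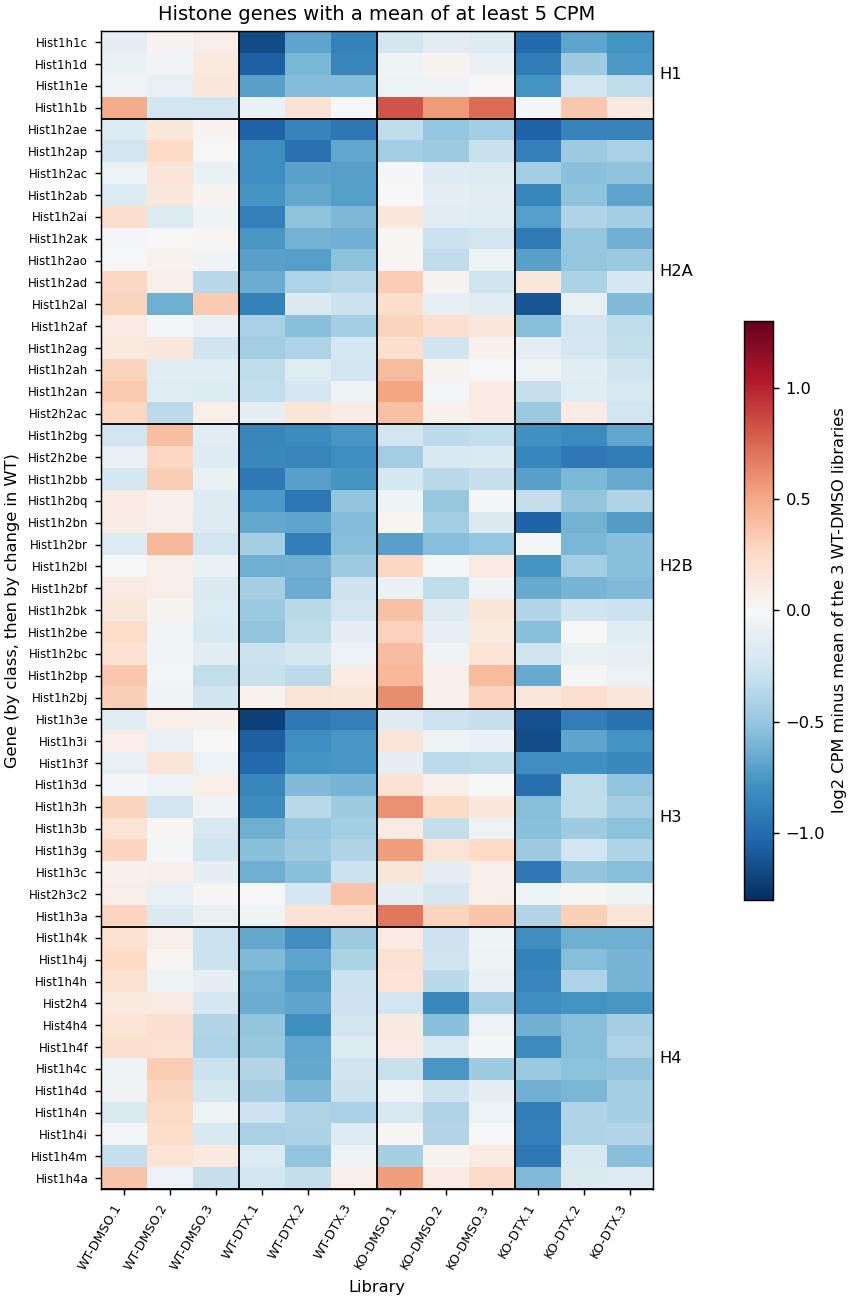
Log2 CPM of the 53 histone genes with a mean of at least 5 CPM (rows, by class) in each of the 12 libraries (columns), minus the mean of the 3 WT-DMSO libraries; blue is lower and red higher. Both docetaxel groups are mainly blue in every class, and Hist1h1b is red in the 3 KO-DMSO libraries.

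The fall was also seen among genes with a larger share of unique windows. Among tested genes with at least 50% of windows unique, 25 of 40 fell in wild-type cells and 24 of 40 in knockout-labelled cells, with medians of -0.52 and -0.48. Among the 20 with fewer, 11 and 7 fell, with medians of -0.48 and -0.44. Of the 17 tested genes with at least 90% of windows unique, 9 fell and 1 rose in wild-type cells (median -0.46). In knockout-labelled cells 8 of these 17 fell (median -0.41). Of the 19 tested genes whose model ends within 100 bases of the stem-loop, 10 fell in wild type (median -0.45), and of the 19 whose model runs further, 14 did (median -0.57). In knockout-labelled cells 8 and 11 fell in the same order, and the median was -0.43 in each set. The longer models also count reads past the stem-loop, whose part in the result was not tested.

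In 12 places an H2A and an H2B gene are divided by a shared stretch of 176 to 306 bases and transcribed away from each other. Both genes were tested in 11 pairs. The median gap between the 2 log2 changes of a pair was 0.10 for wild-type and 0.13 for knockout-labelled cells. Gaps between H2A and H2B genes of different pairs were not compared with these. In wild type the medians of all tested H2A and H2B genes were themselves close, at -0.49 and -0.57. Across the 11 pairs, described without a test, Pearson's r was 0.25 and 0.63, and Spearman's rho 0.26 and 0.59. Both genes fell in 5 and 3 pairs, 1 of them in 5 and 5, and neither in 1 and 3. Hist1h2ae and Hist1h2bg, 176 bases apart, changed alike in each genotype (-0.96 and -0.84, then -0.51 and -0.46), as did Hist1h2ak and Hist1h2bn (-0.66 and -0.65 in wild type). Hist2h2ac and Hist2h2be, 239 bases apart, differed most, at 0.03 and -0.84 in wild type. In knockout-labelled cells this pair was at -0.38 and -0.62.

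**Figure D4:**
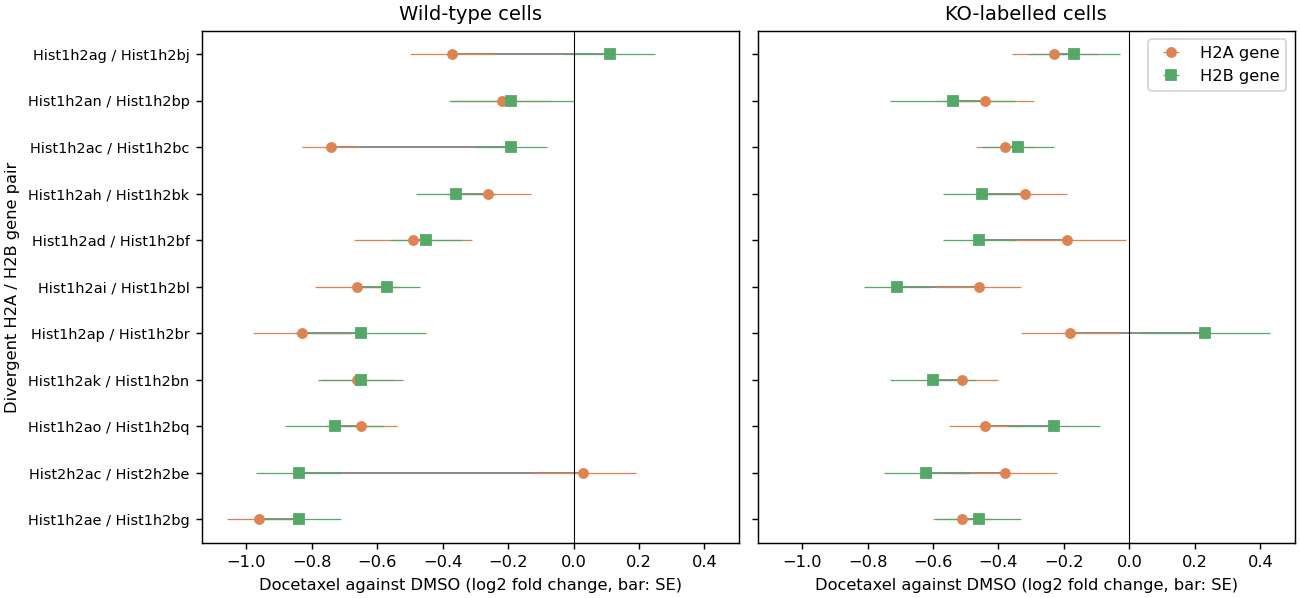
Log2 fold change after docetaxel (horizontal, SE bars) of the H2A (circles) and H2B gene (squares) of 11 divergent pairs in each genotype. Most pairs lie close together, with a median gap of 0.10 in wild type, while Hist2h2ac and Hist2h2be are 0.87 apart there. Gaps between genes of different pairs were not compared.

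Under DMSO the summed histone level differed little between the genotypes. Knockout-labelled cells had 94.5% of the wild-type sum, with overlapping libraries in every class. Of the 60 tested genes, 17 had an unadjusted edgeR p below 0.05. Hist1h1b passed as higher (0.66 ± 0.17, edgeR adjusted p = 0.0171) and 4 genes as lower, against 6.6% higher and 9.2% lower among all genes. The lower ones were Hist1h2ae (-0.43 ± 0.09, edgeR adjusted p = 0.00769), Hist1h2br (-0.62), Hist1h4c (-0.51) and Hist2h4 (-0.50). Without WT-DMSO library 1, Hist1h1b differed by 0.94 ± 0.12 (edgeR adjusted p = 0.000233). Of the 5 called genes, Hist1h2ae alone passed whichever 1 library was left out. The count rested on single libraries: it was 12 without WT-DMSO library 1 (5 higher and 7 lower), 1 without WT-DMSO library 2 or KO-DMSO library 3, 2 without KO-DMSO library 2, and 3 without KO-DMSO library 1 or KO-DTX library 3. It was 0 without both WT-DMSO library 2 and KO-DTX library 3.

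After docetaxel no clustered histone gene passed between the genotypes by edgeR, DESeq2 or limma-voom, while 5.89% of all genes passed by edgeR, and 2 histone genes had an unadjusted p below 0.05. Knockout-labelled cells then stood at 98.3% of the wild-type sum. The interaction asks whether the docetaxel change differed between genotypes. No clustered histone gene passed it by edgeR, DESeq2 or limma-voom, and 7 had an unadjusted p below 0.05; 0.109% of all genes passed by edgeR. The lowest edgeR adjusted p was that of Hist1h2ae, 0.285, with a difference of 0.45 ± 0.13. Without WT-DMSO library 1 it passed (0.53, edgeR adjusted p = 0.0414), as did Hist1h1b (-0.83, edgeR adjusted p = 0.0203). A difference between the genotypes for the 8 genes that fell in wild type only, or the 3 that fell in knockout-labelled cells only (Hist1h1b, Hist1h4a and Hist1h4f), was thus not shown with all 12 libraries. The median SE of the interaction over the tested histone genes was 0.19, so small differences could be missed.

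Replication-independent histone genes lie mostly outside the clusters and are expressed outside S phase as well. Of 10 tested, 2 rose, 1 fell and 7 did not pass in wild-type cells, shares near the 14.5% higher and 13.8% lower of all genes; of the same genes, 0 passed in knockout-labelled cells by edgeR or limma-voom and 1 by DESeq2 (lower), with 3 at an unadjusted edgeR p below 0.05 and 2 lower without KO-DTX library 2. H2afz, the H2A.Z gene, was at 182, 140 and 153 CPM in WT-DMSO and 220, 218 and 229 CPM in WT-DTX, without overlap (0.49 ± 0.11, edgeR adjusted p = 0.00596). H2afx, the source of the damage mark gamma-H2AX, rose by 0.44 ± 0.16 on the log2 scale (edgeR adjusted p = 0.0496). That call was lost in 10 of the 12 fits that left out 1 library (highest edgeR adjusted p = 0.179), WT-DMSO library 1 and KO-DTX library 1 being the exceptions. H1f0, the linker histone of cells that have stopped dividing, was at 751, 810 and 1221 CPM in WT-DMSO and 333, 526 and 423 CPM in WT-DTX. It fell by 1.12 on the log2 scale (edgeR adjusted p = 0.000726), and in knockout-labelled cells stood at -0.50 ± 0.18 (edgeR adjusted p = 0.076).

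Genes for histone mRNA processing and decay did not fall with the histone genes. Of 27 tested, 11 rose and 0 fell in wild type (median 0.32), and 4 rose and 0 fell in knockout-labelled cells (median 0.02), against 14.5% and 9.09% of all genes that rose. Without 1 library the counts that rose ran from 6 (without WT-DMSO library 2) to 14 (without WT-DMSO library 1), and from 1 (without KO-DMSO library 2) to 5. Slbp, whose protein binds the stem-loop, was at 44.7, 30.2 and 33.7 CPM in WT-DMSO and 48.3, 53.3 and 51.2 CPM in WT-DTX, with WT-DMSO library 1 above the other WT-DMSO libraries. Its change was 0.49 ± 0.12 in wild type (edgeR adjusted p = 0.00809) and 0.03 ± 0.12 in knockout-labelled cells (edgeR adjusted p = 0.899), where DMSO levels were already 53.5, 50.1 and 48.2 CPM. The wild-type call was lost without both WT-DMSO library 2 and KO-DTX library 3. Ncbp1, a cap-binding subunit, rose in both (0.74 and 0.49), and so did Cpsf2, the scaffold partner of the cleavage endonuclease (0.41 and 0.38; the latter lost without KO-DMSO library 2, edgeR adjusted p = 0.0542). Npat, the coactivator of histone gene transcription, did not pass in either (0.25 ± 0.14 and 0.36 ± 0.14).

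Of 26 tested histone chaperones, 7 rose and 2 fell in wild type, against 14.5% and 13.8% of all genes. In knockout-labelled cells 3 rose and 2 fell, near the 9.09% and 7% of all genes. Without 1 library, between 4 (without WT-DMSO library 2) and 11 (without WT-DMSO library 1) rose in wild type, and between 0 (without KO-DMSO library 2) and 4 in knockout-labelled cells. Nasp, which holds H3 and H4, was at 62.3, 37.6 and 42.2 CPM in WT-DMSO and 76.3, 83.3 and 78.9 CPM in WT-DTX (0.75 ± 0.15, edgeR adjusted p = 0.00214). Asf1b, another H3 and H4 chaperone, rose by 0.75 ± 0.14 in wild type. Npm1 (-0.59 and -0.47) and the H2A and H2B chaperone Nap1l1 (-0.45 and -0.41) fell in both genotypes whichever library was left out.

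Of 32 tested polyadenylated genes of S phase, 19 rose and 0 fell in wild type (median 0.52), against 14.5% and 13.8% of all genes. In knockout-labelled cells 3 rose and 0 fell (median 0.13), and the share that rose was near the 9.09% of all genes. Slbp and Mcm2 are in this list and also in that of processing or chaperone genes. The wild-type count was 10 without WT-DMSO library 3 and 24 without WT-DMSO library 1. Ccne1, the cyclin of entry into S phase, was at 3.48, 2.13 and 2.5 CPM in WT-DMSO, 12.4, 11 and 10.8 CPM in WT-DTX, 6.36, 4.95 and 5.05 CPM in KO-DMSO and 13, 10.2 and 11.5 CPM in KO-DTX. The docetaxel groups were alike and all above DMSO (2.08 ± 0.18, edgeR adjusted p = 5.63e-06, and 1.09 ± 0.17, edgeR adjusted p = 0.000629). Mcm3, a helicase subunit, was at 142, 77.7 and 83.5 CPM in WT-DMSO and 176, 191 and 189 CPM in WT-DTX, again with WT-DMSO library 1 the highest of its group. Under DMSO, 11 S-phase genes were higher and 1 lower in knockout-labelled cells, 23 and 1 without WT-DMSO library 1, and 1 and 1 without KO-DMSO library 1, against 6.6% and 9.2% of all genes with 12 libraries. Of 20 tested genes of G2 and mitosis, 4 rose and 0 fell in wild type, and 1 rose and 0 fell in knockout-labelled cells; without WT-DMSO library 1, 10 and 3 rose. With all 12 libraries these shares were near the 14.5% and 9.09% of all genes. The part of cell-cycle position in the histone changes was not tested.

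**Figure D5:**
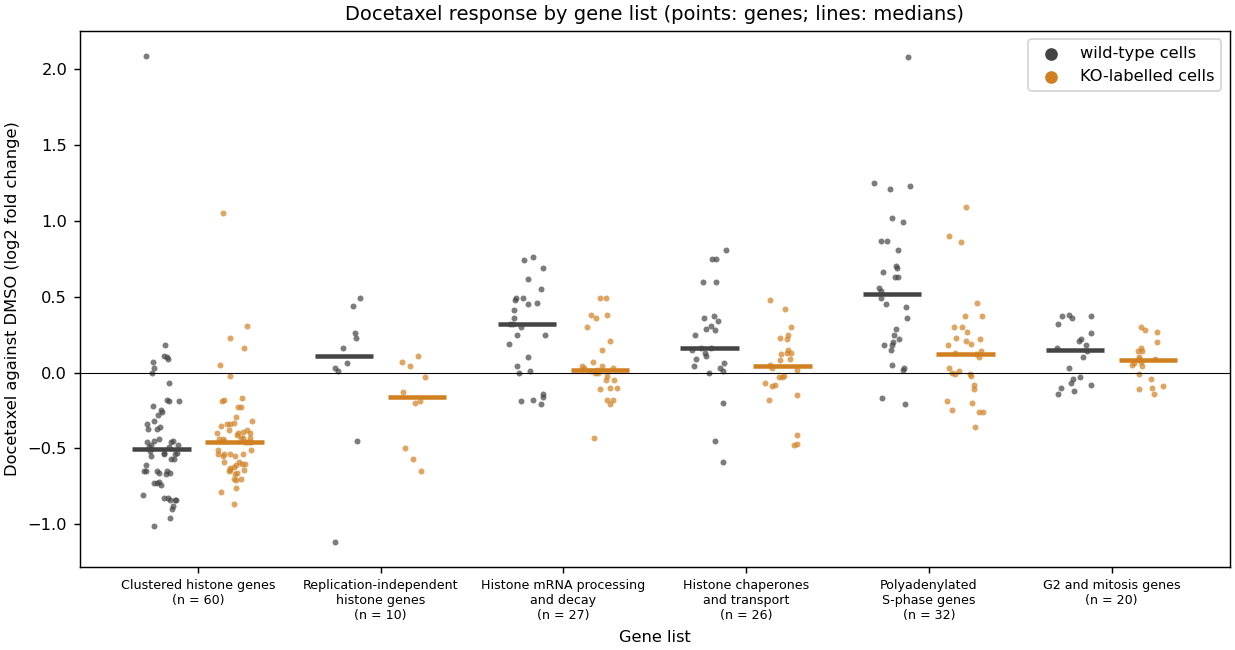
Log2 fold change after docetaxel of each tested gene (points) in the histone genes and 5 other lists, in wild-type (dark) and knockout-labelled cells (orange), with medians as lines. The clustered histone genes lie mainly below 0 in both genotypes, and the S-phase genes mainly above 0 in wild type.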

How the data were processed

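RNA from 12 cultures was sequenced as paired reads of 150 bases after 12 cycles of amplification, per the labels' protocols. Reads were handled with bcl2fastq, STAR 2.5.1a and, from Subread, featureCounts 1.4.6-p5, per the submitters' processing notes. The authors deposited raw counts of reads per symbol, with a column for each library. The build, the annotation, the strand setting and the treatment of multi-mapping reads were not given in the sources used here. For this reason reads of near-identical histone genes, of overlapping genes or of antisense partners could be split or lost.

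Of 40757 entries, 351 exact repeats (0.907% of counts) were removed. All 66 symbols matched GENCODE M21. Genes passing filterByExpr (15538) were fitted with edgeR 4.0.16 in R 4.3.3, with TMM scaling and 1 quasi-likelihood model of 4 group means. The 5 contrasts were two-sided, with Benjamini-Hochberg adjustment over all tested genes and calls at 0.05. Docetaxel contrasts and genotype contrasts share libraries, and are given side by side only. SE is the absolute log2 change divided by the square root of F. The common biological coefficient of variation came to 13.2%, and CPM uses TMM-scaled library sizes. The labels call the cultures biological triplicates. Within groups, chi-square per degree of freedom ran from 7.89 to 157, so no library repeated another. The fit was tested on simulated data.

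The histone genes and the other lists were chosen with earlier results of these data known. Named genes were the most abundant gene of each class and up to 4 called genes per class and contrast with the largest change and at least 5 CPM. Up to 5 called genes were named per other list, and Slbp and Npat in any case. Hist1h1a, Hist2h2ac, Hist1h3a, Hist2h3c2 and Mcm3 were named after their values were seen. DESeq2 1.42.0, limma-voom 3.58.1, other scalings and filters, the contrast's libraries alone, GC correction, a replicate block and leaving out libraries were tried.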

Additional observations from a re-analysis of the deposited data

How the results depend on the processing

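Every alternative kept the direction of the called changes. The number of histone genes called after docetaxel in wild type was 37 and ran from 28 to 41 when 1 library was left out. In knockout-labelled cells it was 31 and ran from 19 to 36, and GC correction gave 20. Between genotypes under DMSO it was 5, ran from 1 to 12, and was 14 with no filter on low counts, 2 with the 6 libraries of the contrast alone, 9 after GC correction and 0 without WT-DMSO library 2 and KO-DTX library 3. The interaction gave 0, with a range of 0 to 2, and 2 with no filter. The log2 ratio of the H2A sum moved with GC correction from -0.55 to -0.46 in wild type, from -0.47 to -0.23 in knockout-labelled cells, and from -0.06 to -0.19 between genotypes under DMSO. Called under every alternative were 25 of 37 histone genes in wild type, 16 of 31 in knockout-labelled cells and 0 of 5 under DMSO. The cause of these shifts was not tested.

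Replicate numbers did not pair the samples consistently: same-numbered libraries correlated between -0.64 and 0.677 over 18 pairs, and 15 of 36 best matches shared a number. Between WT-DTX and KO-DTX, libraries numbered 1, 2 and 3 correlated at 0.677, 0.452 and -0.0225. The labels do not say that equal numbers share a batch. With a replicate block, 34, 29, 5, 0 and 0 histone genes were called in the 5 comparisons. In data simulated for docetaxel in wild type (15221 genes tested), 200 genes drawn at random were changed. The edgeR fit called 23.5% of those changed by 0.5 and 68.9% of those changed by 1 on the log2 scale. In the real contrast 2147 genes fell and 2259 rose, so these rates do not carry over to the histone genes. In data simulated for the interaction, the fit called 7.79% of genes changed by 0.5 and 66.7% of those changed by 1 on the log2 scale. A histone gene that did not pass may still have changed.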
